A study of Rattus norvegicus with 6 samples.

Results

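The genes described here mark the podocyte and the endothelial cell, which face each other across the filter of the kidney glomerulus. They were chosen by name as known markers of the 2 cell types, though with earlier results of these data known. There are 12 podocyte genes and 17 endothelial genes, 29 in all. A gene was measured through every probe whose identifier is a RefSeq transcript of that gene, which gave 47 probes for 25 of the 29 genes, out of 61537 probes on the array. No probe was matched by transcript to Npnt, Egfl7, Robo4 or Vwf, so these 4 genes have no value. All 25 matched genes, 11 of podocytes and 14 of endothelium, had at least 1 probe bright enough to test, and 46 of their 47 probes were.

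Rat renal cortex, the outer kidney with its glomeruli and most proximal tubules, was profiled on Agilent microarrays of 1 colour, with 1 array per animal. Male Sprague-Dawley rats (Crl:CD(SD)), bought at 5 weeks of age, received the vehicle, corn oil (3 animals), or the organochlorine fungicide chlorothalonil, at 500 mg/kg/day (3 animals), in both cases for 4 weeks. The replicates are biological, per the series design. All 14 measured proximal tubule markers were well above background on all 6 arrays, as were the 11 distal nephron markers. The labels of chlorothalonil replicate 3 conflict: its source name reads ethylenediamine dihydrochloride, and its title, treatment and dose read chlorothalonil. It counts as chlorothalonil here, and the main values are also given without it. The corn oil arrays lay on 1 slide and the chlorothalonil arrays on another, scanned at another time, so an effect of slide or scan and one of treatment cannot be told apart.

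Podocytes are terminally differentiated epithelial cells that wrap the glomerular capillaries with interdigitating foot processes. The gaps between these processes are bridged by the slit diaphragm, a junction built around nephrin, and its loss leads to protein in the urine. Podocytes also secrete VEGF-A, which the fenestrated endothelium on the other side of the basement membrane needs and senses through its VEGF receptors. Endothelial cells further line the peritubular capillaries, arterioles and larger vessels of the cortex, so most endothelial genes report on more than the glomerulus.

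Each value is the log2 of a probe's background-corrected brightness relative to the array's 75th percentile, so 0 is the brightness of that percentile and 1 unit is a doubling. Brightness depends on the probe as well as on the RNA, so values are compared between arrays for 1 probe and never between genes. A difference is the mean of the chlorothalonil arrays minus that of the corn oil arrays, on the same log2 scale, given with its standard error and the 95% interval of the limma fit over all 29115 features (1 probe per gene, the brightest on average). In whole cortex, fewer cells of a type and less RNA per cell cannot be told apart.

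None of the podocyte or endothelial genes changed with chlorothalonil at an adjusted p of 0.05 in limma: 0 of 11 and 0 of 14 passed, where 3.12% of all features did (1.30% higher and 1.82% lower). At an unadjusted p under 0.05 there was 1 of the 11 podocyte genes, Cdkn1c, and 0 of the 14 endothelial genes, where 19.7% of all features had such a p. The differences ran from -0.08 to 0.35 for podocyte genes and from -0.04 to 0.24 for endothelial genes, with medians of 0.03 and 0.07. The median was 0.00 over all features and 0.02 over the 11926 features with a gene symbol, as all members have. Of those 11926, 172 passed higher and 83 lower. The 95% interval of every measured member, 11 of 11 and 14 of 14, lay inside a change of 1 log2 unit either way, which was so for 88.3% of all features. Intervals inside a change of 0.5 either way were found for 8 of 11 podocyte and 11 of 14 endothelial genes, against 60.2% of all features. In this fit a difference of 2-fold in either direction therefore lay outside the interval of each gene, while smaller shifts remain possible. Without corn oil replicate 1 the intervals of Magi2 (-0.09 to 1.08) and Ehd3 (-0.60 to 1.09) reached past a 2-fold rise. Without chlorothalonil replicate 3 they were -0.73 to 0.95 and -0.34 to 0.99. Intervals with another array left out are not given here, so a 2-fold rise or fall in those fits is not addressed.

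**Figure D1:**
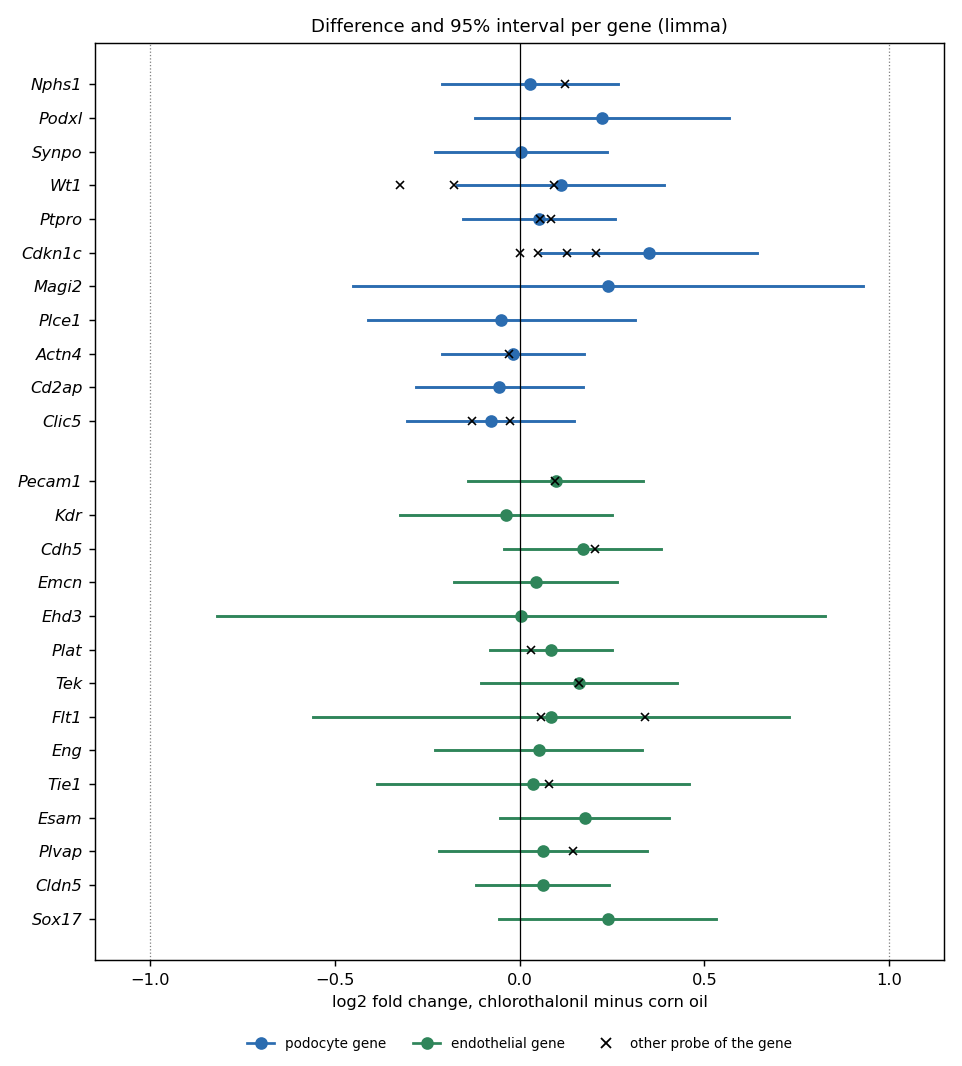
Difference between chlorothalonil and corn oil (x axis, log2) for the 11 podocyte and 14 endothelial genes measured (y axis). Dots are the limma estimates from 3 against 3 arrays on the brightest probe, lines their 95% intervals, crosses the other probes of the same gene, and dotted lines mark 1 log2 unit either way; every line lies between the dotted lines, and the intervals of Ehd3 and Magi2 are the widest.

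Among the slit diaphragm genes, Nphs1 encodes nephrin, the adhesion protein that spans the slit. Nphs1 (NM_022628) was at 1.02, 0.89 and 0.91 in corn oil replicates 1 to 3 and at 0.80, 1.02 and 1.10 in chlorothalonil replicates 1 to 3. The chlorothalonil arrays spread around the corn oil arrays on both sides. The difference was 0.03 ± 0.10 (SE, n = 3 against 3; 95% interval -0.21 to 0.27), with an adjusted p of 0.904 in limma, and the second Nphs1 probe gave 0.12. In fold terms the interval on the brighter probe ran from 0.865 to 1.20. Cd2ap, an adaptor that links nephrin to the actin cytoskeleton, was at 0.43, 0.15 and 0.22 with corn oil and 0.24, 0.14 and 0.25 with chlorothalonil. Its highest array was corn oil replicate 1, and the other 5 arrays lay close together; the difference was -0.06 ± 0.09.

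Plce1, a phospholipase C whose loss causes early nephrotic disease, was at -0.55, -1.12 and -0.80 with corn oil and -0.91, -0.88 and -0.84 with chlorothalonil. The highest and the lowest array were both corn oil arrays, and the difference was -0.05 ± 0.15 (95% interval -0.41 to 0.31). Magi2, a scaffold protein that binds nephrin, was near the background: it was well above background on 5 of 6 arrays, and every other member on all 6. It was at -4.27, -5.24 and -4.82 with corn oil and -4.45, -4.89 and -4.28 with chlorothalonil. The groups overlapped, and the interval of the difference of 0.24 ± 0.28, from -0.45 to 0.93, was the widest among podocyte genes.

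The other podocyte genes act in the cytoskeleton of the foot process, at the apical surface or in the nucleus. Of the cytoskeletal genes, Actn4, an actin crosslinker, was at 4.40, 4.47 and 4.29 with corn oil and 4.45, 4.31 and 4.35 with chlorothalonil. These arrays were nearly alike, and the difference of -0.02 ± 0.08 had an interval from -0.21 to 0.17, the narrowest among podocyte genes (0.865-fold to 1.13-fold). Synpo, which encodes the actin-associated protein synaptopodin, was at -2.59, -2.75 and -2.63 with corn oil and -2.54, -2.81 and -2.62 with chlorothalonil. Its difference was 0.00 ± 0.09, with chlorothalonil arrays at both ends of the range. Clic5, an intracellular chloride channel protein that binds ezrin in foot processes, differed by -0.08 ± 0.09, the lowest value in the podocyte group, with all 3 of its probes between -0.13 and -0.03.

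On the apical surface, Podxl encodes podocalyxin, the sialylated glycoprotein whose charge keeps neighbouring foot processes apart. Podxl (NM_138848) was at 4.30, 3.98 and 4.06 with corn oil and 4.17, 4.57 and 4.25 with chlorothalonil. Chlorothalonil replicate 2 was the highest array, and corn oil replicate 1 lay above the other two chlorothalonil arrays. The difference was 0.22 ± 0.14 (95% interval -0.12 to 0.57), with an adjusted p of 0.44 in limma. Podxl is also made by endothelial cells. Ptpro, a receptor tyrosine phosphatase of the podocyte surface, differed by 0.05 ± 0.08, and its 3 probes gave 0.05 to 0.09.

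**Figure D2:**
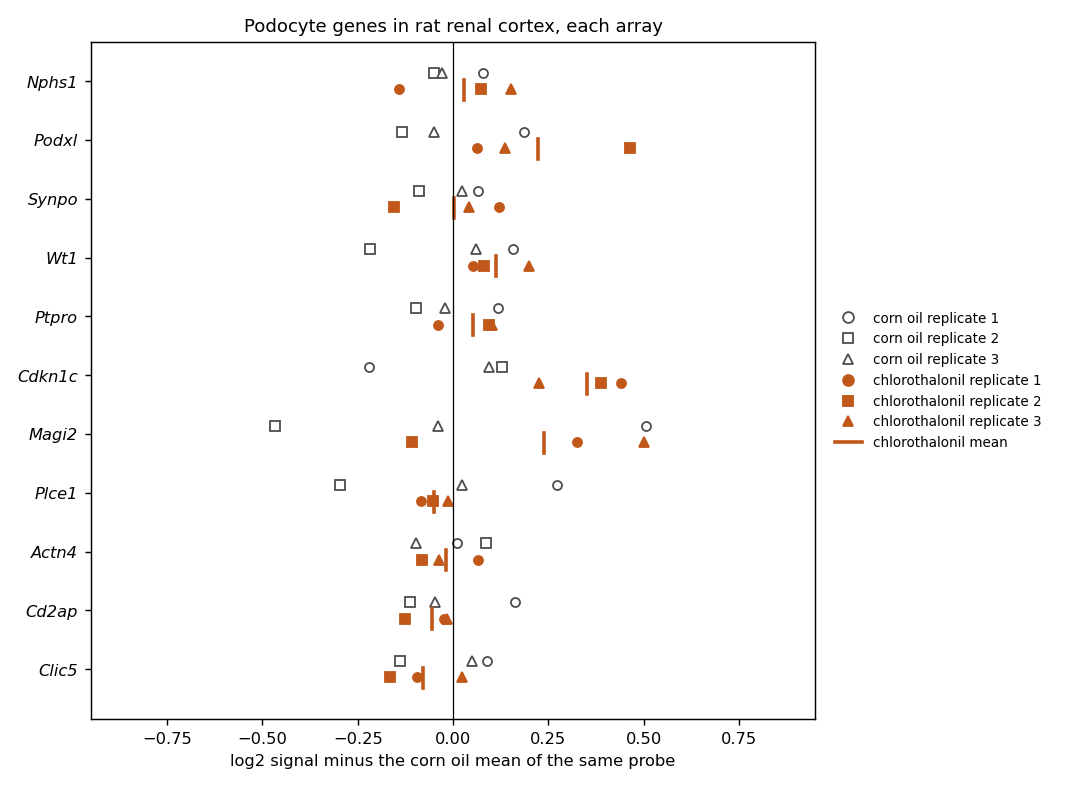
Log2 signal of each array minus the corn oil mean of the same probe (x axis) for 11 podocyte genes (y axis). Open grey symbols are the 3 corn oil arrays, filled orange symbols the 3 chlorothalonil arrays, and orange bars the chlorothalonil means; the groups overlap for every gene except Cdkn1c, and corn oil replicate 2 is the lowest array for 5 of the 11.

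Of the nuclear proteins, Cdkn1c encodes p57, a cyclin-dependent kinase inhibitor that holds mature podocytes out of the cell cycle. Cdkn1c (NM_001033757) was at 2.19, 2.54 and 2.51 with corn oil and 2.85, 2.80 and 2.64 with chlorothalonil. All 3 chlorothalonil arrays lay above all 3 corn oil arrays, with corn oil replicate 1 apart at the low end. Cdkn1c was the 1 podocyte gene whose groups did not overlap, 1 of 11, where the groups did not overlap for 27.7% of all features and were higher with chlorothalonil without overlap for 13.6%. The difference was 0.35 ± 0.12 (95% interval 0.06 to 0.64, or 1.04-fold to 1.56-fold), with an unadjusted p of 0.0261 and an adjusted p of 0.187 in limma. The other 4 probes of Cdkn1c gave smaller values, with differences of 0.00, 0.05, 0.13 and 0.21, and overlapping groups on each. With the mean of its probes in place of the brightest the difference was 0.15. Without corn oil replicate 1 it was 0.24, and without chlorothalonil replicate 3 it was 0.41.

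Wt1, the zinc finger transcription factor that keeps podocytes differentiated, was measured by 4 probes that disagreed in sign. The brightest was at 0.13, -0.24 and 0.03 with corn oil and 0.03, 0.06 and 0.17 with chlorothalonil. The chlorothalonil arrays lay inside the corn oil range apart from replicate 3, just above it, and the difference was 0.11 ± 0.11 (95% interval -0.17 to 0.39). The dimmer Wt1 probes differed by -0.32, -0.18 and 0.09. The probe at -0.32 had an unadjusted p of 0.0399 and an adjusted p of 0.236 in the limma fit over all 39862 probes kept. With the mean of its probes, the Wt1 difference was -0.07. Over all probes kept, 0 of 24 podocyte probes and 0 of 22 endothelial probes passed, where 2.67% of all probes did (1.24% higher and 1.43% lower), and the smallest adjusted p-values were 0.195 and 0.346. At an unadjusted p under 0.05 there were 2 podocyte probes, those of Wt1 and Cdkn1c, and 0 endothelial probes, against 19.2% of all probes. The groups did not overlap for 1 podocyte and 0 endothelial probes, against 27.1% of all probes.

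The endothelial receptors for growth factors come next. Kdr is VEGF receptor 2, which carries most of the VEGF-A signal, and Flt1 is VEGF receptor 1, which binds the same ligand with a weaker kinase. Kdr (NM_013062) was at 4.72, 4.52 and 4.53 with corn oil and 4.66, 4.66 and 4.34 with chlorothalonil. Chlorothalonil replicate 3 was the lowest array and the other two chlorothalonil arrays lay inside the corn oil range, giving a difference of -0.04 ± 0.12 (95% interval -0.33 to 0.25; adjusted p = 0.892 in limma). Without chlorothalonil replicate 3 the Kdr difference was 0.07. Flt1 was at -1.97, -2.74 and -2.07 with corn oil and -2.09, -1.89 and -2.55 with chlorothalonil. Each group held 1 low array, corn oil replicate 2 and chlorothalonil replicate 3, and the difference was 0.08 ± 0.26, with the 3 probes between 0.06 and 0.34.

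Tek, the angiopoietin receptor Tie2, was at -2.54, -2.77 and -2.74 with corn oil and -2.54, -2.37 and -2.67 with chlorothalonil. Chlorothalonil replicate 2 was the highest, and the difference was 0.16 ± 0.11 on the brighter probe and 0.16 on the other. Tie1, the related orphan receptor, differed by 0.04 ± 0.17, with corn oil replicate 1 highest at -0.45 and corn oil replicate 2 lowest at -1.11. Eng, the TGF-beta co-receptor endoglin, was at 0.78, 0.80 and 0.86 with corn oil and 0.89, 1.06 and 0.65 with chlorothalonil. The 3 corn oil arrays of Eng lay close together inside the wider chlorothalonil range, and the difference was 0.05 ± 0.11.

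Junction and surface proteins of endothelium gave small positive differences that did not pass. Pecam1, the adhesion molecule CD31, was at 2.56, 2.27 and 2.34 with corn oil and 2.51, 2.55 and 2.40 with chlorothalonil. Corn oil replicate 1 was the highest array, and both Pecam1 probes gave a difference of 0.10 (± 0.10 on the brighter). Cdh5, the VE-cadherin of adherens junctions, was at -1.94, -2.04 and -2.13 with corn oil and -1.77, -1.86 and -1.97 with chlorothalonil. Chlorothalonil replicates 1 and 2 lay above all corn oil arrays and replicate 3 just below the highest of them. The Cdh5 difference was 0.17 ± 0.09 (95% interval -0.04 to 0.38; adjusted p = 0.345 in limma), and its second probe gave 0.20. Over the alternative fits the Cdh5 difference ran from 0.01 to 0.22.

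Esam, an adhesion molecule of tight junctions, was at 0.27, 0.13 and 0.21 with corn oil and 0.37, 0.53 and 0.24 with chlorothalonil. Here too chlorothalonil replicates 1 and 2 lay above the corn oil arrays and replicate 3 among them, with a difference of 0.18 ± 0.09 (adjusted p = 0.363 in limma). Cldn5, the claudin of endothelial tight junctions, differed by 0.06 ± 0.07, with an interval from -0.12 to 0.24. Emcn, the sialomucin endomucin of capillary and venous endothelium, differed by 0.04 ± 0.09, and its lowest array was chlorothalonil replicate 3 at 1.62.

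Ehd3, a membrane-trafficking protein enriched in glomerular endothelium, is the endothelial member most tied to the glomerulus. Ehd3 (NM_138890) was at -2.80, -3.54 and -3.50 with corn oil and -2.99, -2.93 and -3.92 with chlorothalonil. The arrays of each group were widely spread, and chlorothalonil replicate 3 was the lowest of all. The difference was 0.00 ± 0.33, with an interval from -0.82 to 0.83 (0.567-fold to 1.77-fold), the widest of all 25 genes. It was 0.33 without chlorothalonil replicate 3 and -0.17 without chlorothalonil replicate 2. Plvap encodes the protein of the fenestral diaphragms of peritubular capillaries, which mature glomerular endothelium largely lacks. Plvap was at 5.72, 5.53 and 5.49 with corn oil and 5.82, 5.47 and 5.63 with chlorothalonil, with a difference of 0.06 ± 0.11 and chlorothalonil arrays at both ends of the range.

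Plat, the secreted tissue plasminogen activator, had the smallest standard error of the members, with a difference of 0.08 ± 0.07 and an interval from -0.08 to 0.25 (0.945-fold to 1.19-fold). Sox17, a transcription factor of arterial endothelium, had the largest difference among the endothelial genes. Sox17 (NM_001107902) was at -3.68, -3.61 and -3.55 with corn oil and -3.62, -3.28 and -3.22 with chlorothalonil. Chlorothalonil replicates 2 and 3 lay above every corn oil array and replicate 1 among them, and the difference was 0.24 ± 0.12 (95% interval -0.05 to 0.53; adjusted p = 0.338 in limma). Its second probe was not well above background on any array and has no difference. Sox17 and Magi2 are dim genes, and 31 control probes with a mean log2 signal under -5 differed between the group means by a median of -0.35 (range -0.43 to 0.58). Corn oil replicate 3 stood apart at this level of brightness. The negative control probes had a median of -6.99 in it, against -7.70 and -7.66 in corn oil replicates 1 and 2. With chlorothalonil that median was -7.85, -7.88 and -7.71 in replicates 1 to 3. The part of these offsets in the dim genes' values was not tested.

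**Figure D3:**
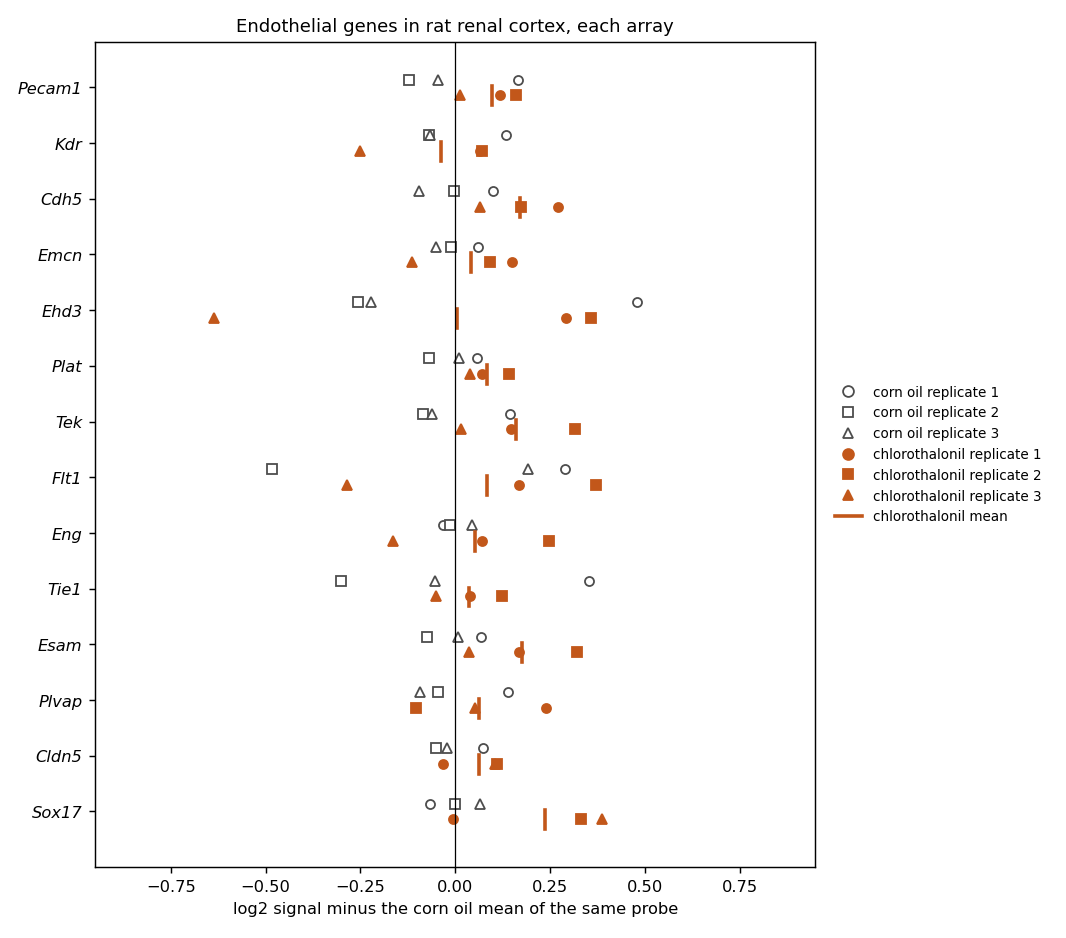
Log2 signal of each array minus the corn oil mean of the same probe (x axis) for 14 endothelial genes (y axis). Open grey symbols are the 3 corn oil arrays, filled orange symbols the 3 chlorothalonil arrays, and orange bars the chlorothalonil means; the groups overlap for every gene, and symbols at almost the same value cover each other, as for Kdr.

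Of the 14 endothelial genes, 13 had a difference above 0 and Kdr alone was below, while 7 of 11 podocyte genes were above 0. Over all features 50.8% were above 0, and over those with a gene symbol 55.7%. The members' share moved with the scaling and the arrays used. Without chlorothalonil replicate 2 there were 9 of 14 endothelial genes above 0, with normexp background correction 9, and with scaling to the array median 14. Without chlorothalonil replicate 3, and likewise without corn oil replicate 1, there were 14 of 14. The groups did not overlap for 0 of the 14. Without chlorothalonil replicate 3, the array with conflicting labels, they did not overlap for 6 of 14, all 6 higher with chlorothalonil. Over all features in the same arrays, the groups did not overlap in either direction for 38.3% and were higher without overlap for 18.9%. Those 6 were Cdh5, Emcn, Plat, Tek, Eng and Esam. Without corn oil replicate 1 the count was also 6, all higher, beside 38.6% of all features in either direction and 20.1% higher, and the median endothelial difference was 0.19 in place of 0.07. With corn oil replicate 2, corn oil replicate 3, chlorothalonil replicate 1 or chlorothalonil replicate 2 left out, the share over all features in either direction was 36.8%, 37.8%, 36.0% or 36.1%. Over all fits with 1 array left out, the endothelial count ranged from 0 to 6, so the 2 fits described above gave the highest count. In limma, 0 of 25 members passed without chlorothalonil replicate 3 or without corn oil replicate 1.

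Without chlorothalonil replicate 3, the median difference was 0.15 for the endothelial genes and -0.01 for the podocyte genes, of which 5 of 11 were above 0. The adhesion molecule Esam was then at 0.24, with an unadjusted p of 0.0393 and an adjusted p of 0.27 in limma. The receptors Flt1, Tek and Eng were at 0.27, 0.23 and 0.16, and Emcn at 0.12. Among podocyte genes Nphs1 was at -0.03 and Magi2 at 0.11. Leaving out this array raised the value of every endothelial gene measured except Cldn5 and Sox17, and of Actn4, Cdkn1c and Podxl among the podocyte genes.

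The members also differed between animals of the same group. Averaged over the 11 podocyte genes, after subtracting each gene's mean over the 6 arrays, corn oil replicates 1 to 3 lay at 0.09, -0.16 and -0.04 and chlorothalonil replicates 1 to 3 at 0.03, 0.00 and 0.08. Corn oil replicate 1 was the highest and replicate 2 the lowest, so the range of the podocyte genes was set within the controls. The same average over the 14 endothelial genes was 0.10, -0.16 and -0.07 with corn oil and 0.08, 0.15 and -0.10 with chlorothalonil. Corn oil replicate 2 was the lowest array for 5 of 11 podocyte and 7 of 14 endothelial genes, where it was the lowest for 15.8% of all features. In chlorothalonil replicate 3 the podocyte genes lay on average above their mean and the endothelial genes below it. These averages describe the arrays; members share their array, so they are not replicates.

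**Figure D4:**
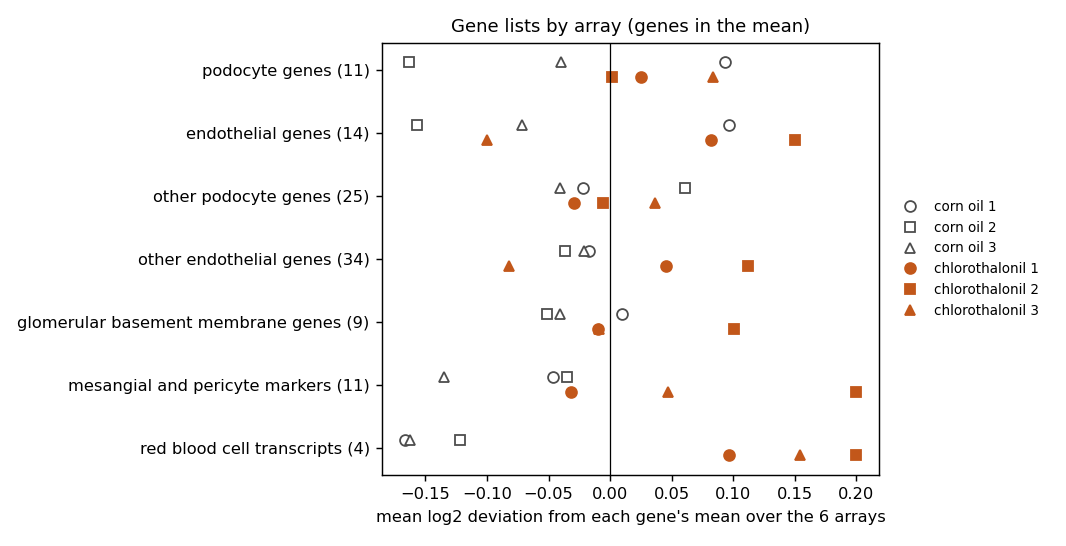
Mean over the genes of a list (y axis, number of genes in brackets) of each gene's log2 deviation from its mean over the 6 arrays (x axis), with 1 symbol per array. Open grey symbols are corn oil and filled orange symbols chlorothalonil; the 2 groups overlap for podocyte and endothelial genes and lie apart for the red blood cell transcripts, and chlorothalonil 1 covers chlorothalonil 3 for the basement membrane genes.

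Other genes listed for the same cells gave a similar picture. In whole cortex their signal, like that of the members, was not resolved by cell type and can come from other cells too. Of 32 other podocyte genes listed, 25 were measured, with a median difference of 0.01. Limma called 0, and 1 reached an unadjusted p under 0.05, against 19.7% of all features. That gene was Foxc1, a forkhead transcription factor of the podocyte lineage, at 0.57 to 0.65 with corn oil and 0.78 to 0.80 with chlorothalonil (0.18 ± 0.06; adjusted p = 0.171 in limma). Of 9 measured genes of the glomerular basement membrane, which both cells build, limma called 0. In opposite directions, 2 of the 9 (22.2%) reached an unadjusted p under 0.05, near the 19.7% of all features. Agrn, the heparan sulfate proteoglycan agrin, differed by 0.28 ± 0.07 (adjusted p = 0.119 in limma). Col4a4, a chain of the mature collagen IV network and chosen after its value was seen, differed by -0.33 ± 0.10 (adjusted p = 0.16 in limma).

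Of 38 other endothelial genes listed, 34 were measured, with a median difference of 0.06. Limma called 0, and 2 (5.88%) reached an unadjusted p under 0.05, against 19.7% of all features. Efnb2, the ephrin ligand that marks arterial endothelium, was at -2.09, -2.07 and -2.26 with corn oil and -2.51, -2.55 and -2.69 with chlorothalonil. All 3 chlorothalonil arrays lay below all corn oil arrays, and the difference of -0.44 ± 0.09 had an adjusted p of 0.0637 in limma, short of the threshold. The other was Clec14a, an endothelial lectin chosen after its value was seen, at 0.45 ± 0.10 (adjusted p = 0.0908 in limma). Chlorothalonil replicate 3 was the lowest array for 13 of these 34 genes, against 18.3% of all features.

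The ligands of the endothelial receptors were measured in the same arrays. Of 13 measured growth factor genes, limma called 0, and 4 (30.8%) reached an unadjusted p under 0.05, against 19.7% of all features. Vegfa, the ligand of Kdr and Flt1 that podocytes secrete, was at 4.42, 4.13 and 4.23 with corn oil and 4.30, 4.47 and 4.32 with chlorothalonil. The groups overlapped, and the difference was 0.11 ± 0.10. Angpt1, the activating ligand of Tek, differed by -0.04 ± 0.14; Vegfa and Angpt1 were chosen after their values were seen. Angptl2, a secreted angiopoietin-like protein, had the smallest p of the list, at -0.74 ± 0.22 (adjusted p = 0.149 in limma). The rest of those 4 were Pgf, Angptl4 and Apln, also chosen after their values were seen. Pgf differed by 0.42 ± 0.13 (adjusted p = 0.152 in limma). Angptl4 and Apln were lower, at -0.90 ± 0.29 and -0.44 ± 0.17 (adjusted p = 0.175 and 0.231 in limma). The groups did not overlap for 3 of the 13 genes (23.1%), against 27.7% of all features. Pgf was higher with chlorothalonil, and Angptl2 and Apln were lower. Of 10 measured genes of endothelial activation, such as adhesion molecules for leukocytes, limma called 0, and 1 reached an unadjusted p under 0.05; the median difference was -0.21. That gene was Hif1a, the oxygen-regulated transcription factor, at -0.19 ± 0.06 (adjusted p = 0.152 in limma).

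Markers of neighbouring cells were read in the same way. Of 11 measured markers of mesangial cells and pericytes, the contractile cells beside these capillaries, 0 passed in limma and 10 had a difference above 0. Rgs5, a pericyte regulator of G protein signalling, differed by 0.48 ± 0.13 (adjusted p = 0.132 in limma). All 4 measured red blood cell transcripts were higher in each chlorothalonil array than in any corn oil array, as were 13.6% of all features. All 4 also had an unadjusted p under 0.05 in limma, where 19.7% of all features did. Their summed signal, in units of the 75th percentile, was 475 to 497 with corn oil and 556 to 602 with chlorothalonil. None of these 4 passed in limma either, and Slc25a37, a mitochondrial iron importer, had the smallest adjusted p, 0.06. The part of blood content in the endothelial values was not tested.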

How the data were processed

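The authors deposited, per the file headers, spot intensity on a linear scale from Agilent Feature Extraction (version 10.7 per the submitters' processing notes), background-subtracted and not scaled across arrays. A further table deposited by the authors holds a ratio on a linear scale, close to the processed signal divided by a constant for the array near its 75th percentile and not centred by gene. This was found from the values, since the labels do not state how the constant was chosen. The median of each column was 0.107, 0.109 and 0.112 for corn oil and 0.105, 0.105 and 0.106 for chlorothalonil.

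Here log2 of the processed signal was centred on each array's 75th percentile over 61537 probes other than controls. Outlier spots (0 to 9 per array) were left out, and no spot was saturated. Of these probes, 62.1% to 67.8% per array were well above background, fewest in corn oil replicate 3. Probes entered the fit if every one of the 3 arrays in either group was well above background and each group had 2 or more usable spots. That left 39862 probes and, with the brightest per gene, 29115 features. Transcripts were named through RefSeq's GRCr8 gene table, which matched 28206 probes. Coordinates are left out because the file headers name an earlier build.

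The comparison used lmFit and eBayes of limma 3.58.1 under R 4.3.3, with Benjamini-Hochberg adjustment over all features. The code of the fit was tested on simulated data with independent noise and with planted changes larger than any member's difference. That test does not bear on the members. Alternatives changed the normalization, the scaling, the background correction (normexp, on median spot signals), the filter, the probe rule, the variance prior and the arrays used. The number of arrays limits precision. The members, the gene lists and the tests were chosen with earlier results of these data known. All members are named, and from each other list the genes past the threshold or, failing that, the gene of smallest p. Replicate numbers are not stated to pair animals, so no block was used in the main fit. Deviations of same-numbered arrays from their group means correlated at 0.09, 0.02 and 0.05. These correlations do not settle whether animals were paired, since 4 of 6 arrays correlated best with their own number.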

Additional observations from a re-analysis of the deposited data

How the results depend on the processing

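In each of the 16 alternative fits 0 podocyte and 0 endothelial genes passed in limma. At an unadjusted p under 0.05 there were 0 to 2 members, where 4556 to 6508 features of 26947 to 45432 tested had such a p. Calls over all features moved more: 172 of them with no filter on dim probes, 0 with the replicate number as a block (5271 at an unadjusted p under 0.05), and 127 to 402 with an array left out, against 909. Normexp gave 1327 and the variance prior with trend and robust 1315. Deviations from the group means correlated best with the same number in the other group for 4 of 6 arrays. Podocyte genes without overlap of the groups numbered 2 with normexp, 0 with the mean of probes and 1 to 3 with an array left out. Endothelial genes without overlap numbered 1 with normexp, 1 with quantile normalization, 1 with scaling to the array median and 0 to 6 with an array left out. The share of all features without overlap was 36.0% to 38.6% with an array left out. It was not counted with normexp, quantile normalization, scaling to the array median or the mean of probes, so those counts have no background beside them. With an array left out, the endothelial median ranged from 0.039 to 0.19 and the podocyte median from -0.0081 to 0.098, with 5 to 9 podocyte genes above 0.

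Differences near 0 changed sign, in 32 of 399 values for 13 genes, none of them called. With scaling to the array median, which moved the median of all features to 0.06, Plce1 was at 0.0021, Actn4 at 0.035 and Kdr at 0.015. With normexp, Nphs1 was at -0.0066, Wt1 at -0.0011, Cd2ap at 0.017, Ehd3 at -0.0064, Flt1 at -0.029, Eng at -0.099 and Tie1 at -0.0049. With the mean of probes, Wt1 was at -0.075. With an array left out, the ranges were -0.066 to 0.025 for Actn4, -0.11 to 0.025 for Cd2ap, -0.17 to 0.33 for Ehd3, -0.011 to 0.12 for Emcn, -0.047 to 0.16 for Eng, -0.16 to 0.27 for Flt1, -0.093 to 0.068 for Kdr, -0.034 to 0.11 for Nphs1, -0.20 to 0.086 for Plce1, -0.026 to 0.15 for Plvap, -0.056 to 0.081 for Synpo and -0.11 to 0.21 for Tie1. Without a change of sign, Cdh5 ran from 0.012 to 0.22 over the 16 alternatives, and Sox17 from 0.043 to 0.36. With an array left out their lowest values were 0.12 and 0.16. The cause of these changes was not tested. Magi2 has no value with a filter for all 6 arrays. The planned slide block could not be fitted, since each slide holds 1 group.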

Other observations

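Markers of cells further from the capillaries gave no call in limma either: 0 passed of 14 measured proximal tubule markers, of 11 distal nephron markers, of 8 parietal epithelium markers, of 8 macrophage and leukocyte markers and of 4 lymphatic endothelium markers. At an unadjusted p under 0.05 there were 2, 2, 1, 1 and 1 of them, in that order, against 19.7% of all features. Slc34a1, the phosphate transporter of the proximal tubule, differed by 0.27 ± 0.06 (SE; adjusted p = 0.0886 in limma). Calb1, a calcium buffer of the distal tubule, differed by -0.56 ± 0.14 (adjusted p = 0.115 in limma). Krt18, a keratin, was at 0.48 ± 0.17, Adgre1, the macrophage receptor F4/80, at -0.47 ± 0.12, and Reln, the secreted protein reelin, at -0.60 ± 0.17.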
